A study of Mus musculus with 26 samples.

Results

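Old cultured osteoblasts given iBP were compared with old osteoblasts that carry a deletion in Kdm2b. The comparison takes 6 of the 26 samples of the series, the 3 RNA libraries of CON-OLD-iBP and the 3 of CKO-OLD, chosen by their titles. Of 26264 gene symbols in the count table, 15292 had enough counts to be tested. CKO-OLD are femoral osteoblasts of old Kdm2b fl/fl mice with Ocn-cre, a driver that acts in the osteoblast lineage, and the Ai14 fluorescent reporter. The deletion removes the CxxC domain of Kdm2b and not the whole gene. CON-OLD-iBP are, by their title, old control cells given iBP, and the protocol names mice with Ocn-cre and Ai14 as the control. Both groups would thus share the driver, the reporter and the C57BL/6J background. The labels do not say what iBP stands for, nor its dose, route or time. The age of both groups is given as OLD, and the series gives 18 months for the old mice of its ageing comparison. The 2 groups differ in genotype and in treatment at once, so effects of the deletion and of iBP cannot be told apart in any value below. An untreated old control of the knockout line is not analysed here. OLD, cells of old C57BL/6J mice without driver or treatment, is given only as a level beside some genes. Whether replicates are separate animals or cultures is not stated, so p-values measure the spread between these libraries, which may be technical.

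Osteoblasts build bone: they secrete a matrix of type I collagen and mineralise it, and they steer osteoclasts, the cells that resorb bone. KDM2B binds unmethylated CpG-rich DNA through its CxxC domain and brings the Polycomb complex PRC1.1 to these sites, where the complex adds ubiquitin to histone H2A and helps to keep developmental genes silent. The Wnt pathway, in which secreted ligands stabilise beta-catenin, drives osteoblasts to form bone, and the series title joins PRC1.1 inhibition to it.

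Levels are given as CPM (counts per 1e6 counts, with library sizes scaled together over all 18 RNA libraries), in the order of replicates 1, 2 and 3. Where 2 sets of levels are joined by "against", CKO-OLD comes first. Log2 fold changes are CON-OLD-iBP minus CKO-OLD, with SE for the standard error, and a gene is called at an edgeR adjusted p under 0.05. DESeq2, a further test, was fitted to every gene with a count in the 6 libraries. Its counts for a list may thus include members that edgeR did not test. In the 6 libraries totals ran from 46.27 to 55.82 in units of 1e6 counts, so 1 count was worth 0.0175 to 0.0203 CPM. The nuclear transcript Malat1 took 0.126% to 0.223% of the counts in all 6, and the Y-linked gene Ddx3y lay between 66 and 76.5 CPM. In OLD these values differed between libraries, with Malat1 at 0.173% in OLD 2 and 0.0368% to 0.0377% in OLD 1 and 3, and Ddx3y at 0, 36.2 and 0 CPM. OLD 1 and 3 thus lay below all 6 libraries in both values, and OLD 2 did so in Ddx3y. Levels in OLD are therefore not those of a matched reference. The first principal component of the 6 libraries held 55.3% of the variance and parted the groups, with CKO-OLD at -31.1, -67.3 and -36.4 and CON-OLD-iBP at 60.9, 13 and 61. CON-OLD-iBP 2 lay nearest to the knockout libraries and CKO-OLD 2 farthest from the treated ones. Defining genes of osteoblasts were read in both groups: the type I collagen gene Col1a1 stood at 11985, 13547 and 7137 against 5484, 8734 and 2909 CPM and the matrix gene Spp1 at 11958, 11525 and 10344 against 12185, 12139 and 7127 CPM.

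In CON-OLD-iBP 412 genes were higher and 267 lower than in CKO-OLD, which is 2.69% and 1.75% of the 15292 genes tested. The median log2 fold change of all genes was 0.01, and 3767 genes lay at an unadjusted p under 0.05. Levels did not overlap between the groups for 2341 genes higher in CON-OLD-iBP (15.3%) and 2559 higher in CKO-OLD (16.7%). The gene lists below are read against these shares. The number of calls rests on single libraries. Without CKO-OLD 1 edgeR called 0 genes, with 3413 at an unadjusted p under 0.05. Without CKO-OLD 2 it called 19 higher and 8 lower in CON-OLD-iBP, and without CKO-OLD 3 it called 35 and 15. Without CON-OLD-iBP 1 there were 55 and 20, without CON-OLD-iBP 2 there were 620 and 684, and without CON-OLD-iBP 3 there were 133 and 37. All 679 called genes kept their sign in these 6 fits. Of the 679, 20 stayed called in 5 of the 6 fits, all but that without CKO-OLD 1. Among the 20 are Il1rl1, Serpinb2, Dusp10, Fgf18, Srxn1, Mmp10, Thbd, Nat8l and Crct1, which rose, and Tcfl5, Epop, Slco4a1, Isyna1 and Nfil3, which fell.

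**Figure D1:**
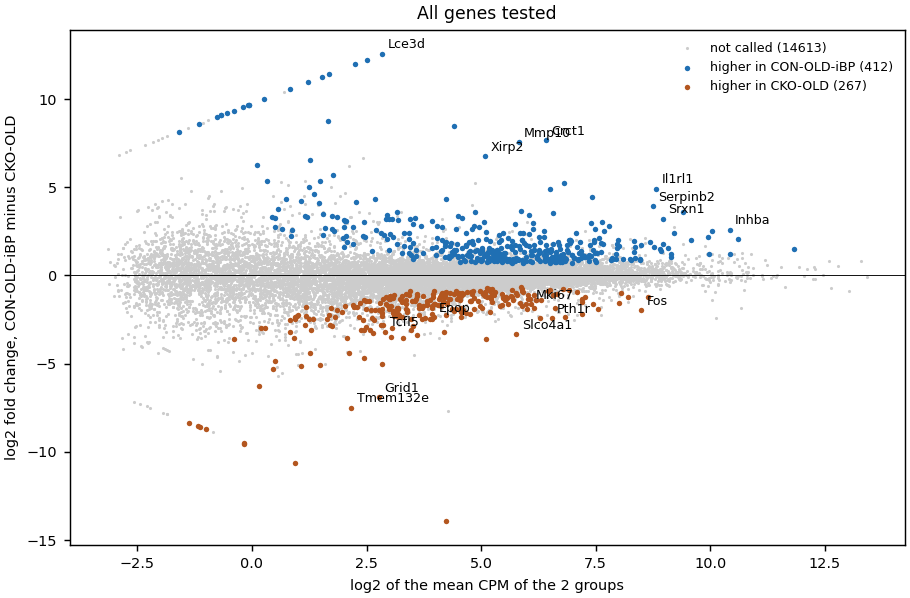
Each point is 1 of the 15292 tested genes, with log2 of the mean CPM of both groups on the x axis and the log2 fold change, CON-OLD-iBP minus CKO-OLD, on the y axis. Blue points are the 412 genes called higher in CON-OLD-iBP and orange points the 267 called higher in CKO-OLD; the straight rows of points at the upper and lower left are genes with 0 counts in 1 group, whose fitted fold change depends on the prior count.

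Kdm2b itself stood at 23.4, 57.2 and 28.4 CPM in CKO-OLD 1, 2 and 3 and at 19.3, 24 and 16.2 CPM in CON-OLD-iBP 1, 2 and 3 and was not called (log2 fold change -0.84 ± 0.35 SE, edgeR adjusted p = 0.188). CKO-OLD 2 was above the other 5 libraries, and the groups overlapped. A count of the whole gene cannot check the loss of a single domain. Several genes with large decreases in CON-OLD-iBP were near silent in the treated cells. Tmem132e, a gene for a transmembrane protein, was at 4.56, 14.3 and 8.02 CPM in CKO-OLD and at 0.141, 0 and 0 CPM in CON-OLD-iBP (log2 fold change -7.49 ± 1.15 SE, edgeR adjusted p = 0.0216). It was at 0 in all 3 OLD libraries as well. Tcfl5, a transcription factor best known from the testis, stood at 16.6, 11.9 and 11.9 CPM in CKO-OLD against 1.11, 1.56 and 1.66 CPM in CON-OLD-iBP (log2 fold change -3.19 ± 0.31 SE, edgeR adjusted p = 0.00883). The treated cells were near the OLD libraries, which held 0.971, 1.15 and 1.37 CPM. Grid1, which encodes a delta-type glutamate receptor, fell from 7.96, 20.9 and 11.9 CPM to 0, 0.165 and 0.162 CPM (log2 fold change -6.89 ± 0.88 SE, edgeR adjusted p = 0.016). OLD held 0.116, 0.23 and 0 CPM, again near the treated cells. Lhx2, a homeobox factor of limb and forebrain, fell from 4.99, 6.34 and 5.04 to 0.242, 0.22 and 0 CPM (-5.09, adjusted p = 0.0346). En2, a homeobox factor of the midbrain, was at 0.483, 1.31 and 0.875 CPM in CKO-OLD and had no count in any treated library (adjusted p = 0.0375). It was at least 45.5-fold lower, taking 3 counts in the whole group as the floor, which covers counting error only. The groups did not overlap in Tcfl5 and En2. For Tmem132e, Grid1 and Lhx2, named as largest decreases, no overlap was a condition of the choice.

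The promoters of Tcfl5 and Tmem132e are shown because the deleted domain binds unmethylated CpG. Each stretch is the 150 bases before the RefSeq start on the gene's strand (table build GRCm38.p6), 5′ to 3′, with every CG in capitals.
Tcfl5: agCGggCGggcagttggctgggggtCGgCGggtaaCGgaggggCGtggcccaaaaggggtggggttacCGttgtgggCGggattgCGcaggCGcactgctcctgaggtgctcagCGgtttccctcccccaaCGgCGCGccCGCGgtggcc
Tmem132e: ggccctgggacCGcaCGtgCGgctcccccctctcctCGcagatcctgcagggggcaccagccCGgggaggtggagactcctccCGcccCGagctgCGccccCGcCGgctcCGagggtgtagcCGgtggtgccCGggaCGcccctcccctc
The Tcfl5 stretch (chr2:180642692-180642841, minus strand) holds 16 CG and is 72.7% G or C, and that of Tmem132e (chr11:82388750-82388899, plus strand) holds 14 and is 78% G or C. Over all 32851 promoter windows of the table the medians were 4 CG and 54%. CGCG, a run that reads the same on both strands, matched at 2 places in Tcfl5 and at none in Tmem132e, and occurs in 29.2% of all windows. The genes were picked by hand, and windows of the other genes that fell are not shown. These letters describe the windows shown and show no binding. Only 534 of the 679 called genes (78.6%) had a window, as did 78.5% of all genes tested. No comparison over the called genes is given, so whether CG content differs between called and other genes was not tested.

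The other large decreases were in a transporter, a hormone, enzymes, regulators and immune genes. The organic anion transporter gene Slco4a1 stood at 96.3, 129.6 and 72.8 CPM in CKO-OLD and at 8.04, 12.6 and 8.25 CPM in CON-OLD-iBP (log2 fold change -3.34 ± 0.30 SE, edgeR adjusted p = 0.00682). Stc1, the secreted hormone stanniocalcin, fell from 25.2, 56.2 and 17 to 2.97, 3.74 and 3.53 CPM (-3.23, adjusted p = 0.0172). In both genes each knockout library was several times above each treated one. Gal3st1, which sulfates galactosylceramide, fell from 12.3, 12.4 and 9.18 to 0.707, 1.43 and 1.32 CPM (-3.26, adjusted p = 0.013). Ranbp3l, a nuclear export factor of BMP SMADs, fell from 15.8, 16.7 and 22 to 0.848, 1.28 and 2.43 CPM (-3.55, adjusted p = 0.0149). The adenylyl cyclase gene Adcy5, the chromatin organiser Satb1 and the membrane protein gene Tmem151b fell as well, with log2 fold changes of -3.51, -3.55 and -4.40. No overlap between groups was a condition of their choice.

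Of the 14 largest decreases, 4 were immune genes. In bulk samples fewer cells of a type and less RNA per cell cannot be told apart, here and for the lists below. The chemokine Ccl3 was at 11, 23.5 and 7.09 against 0.444, 0.77 and 0 CPM (-5.04, adjusted p = 0.0477) and its neighbour Ccl4 at 11.6, 13.4 and 6.29 against 0.687, 0.165 and 0.345 CPM (-4.68, adjusted p = 0.016). In OLD, Ccl3 was at 78.1, 2.94 and 85 CPM, so these libraries lay both below and above the knockout. Cd72, a receptor of B cells and macrophages, fell from 60.4, 104 and 26.1 to 3.62, 5.65 and 5.98 CPM (-3.61, adjusted p = 0.0176). The MHC gene H2-Q6 fell from 9.31, 33.6 and 23.2 to 2.04, 3.28 and 0.851 CPM (-3.38, adjusted p = 0.0342), and has near-identical neighbours among which reads may be split. Values of macrophage markers, which lay lower in the same libraries, stand with the immune genes below. Cacna1h, a T-type calcium channel gene, and Cntfr, the receptor of ciliary neurotrophic factor, were chosen after their values were seen and also fell. Cacna1h went from 7.4, 14.4 and 10.3 to 0.404, 1.54 and 1.68 CPM and Cntfr from 8.14, 10.3 and 14.5 to 2.93, 3.32 and 1.93 CPM.

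The largest increases included a matrix protease, a cytokine and its receptor, and genes of the epidermal surface. Mmp10, the matrix protease stromelysin-2, was at 0.503, 0.595 and 0.732 CPM in CKO-OLD and at 187, 79.6 and 70.3 CPM in CON-OLD-iBP (log2 fold change 7.54 ± 0.51 SE, edgeR adjusted p = 0.00575). All 3 treated libraries were above 70 CPM and all 3 knockout libraries under 1 CPM, while OLD held 0.406, 4.9 and 0.463 CPM. Il33, a cytokine released by injured cells, rose from 9.35, 7.3 and 0.714 to 149, 217 and 286 CPM (log2 fold change 5.26 ± 0.87 SE, edgeR adjusted p = 0.0272). Its receptor gene Il1rl1 rose from 42.3, 30.0 and 16.1 to 992, 763 and 873 CPM (log2 fold change 4.92 ± 0.41 SE, edgeR adjusted p = 0.0064). Neither gene overlapped between the groups, which was a condition of their choice, and CKO-OLD 3 was the lowest library for both. For Il33 the levels in OLD were 55.8, 7.02 and 55.9 CPM, so OLD 1 and 3 lay between the groups. Xirp2, an actin-binding protein of striated muscle, rose from 0, 0.578 and 1.29 to 109.7, 40.8 and 50.8 CPM (6.76, adjusted p = 0.0239). Esm1, an endothelial proteoglycan, rose from 0, 0.245 and 0.143 to 7.58, 7.14 and 5.41 CPM (5.68, adjusted p = 0.025). Both were near silent in the knockout cells. Odaph, an enamel gene, rose from 0.121, 0.123 and 0.161 to 13.5, 2.37 and 0.608 CPM (5.35, adjusted p = 0.0497), and was far higher in CON-OLD-iBP 1 than in the other treated libraries.

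Of the largest increases, 5 genes had no count in any CKO-OLD library, and their folds below take 3 counts in the whole group as the floor. Lce3d, a late cornified envelope gene of skin, reached 19.9, 1.96 and 21.2 CPM in CON-OLD-iBP, at least 778-fold higher (adjusted p = 0.0305). Lce3c reached 16.8, 0.917 and 10.7 CPM, at least 515-fold higher (adjusted p = 0.0371). Neu2, a cytosolic sialidase, reached 8.48, 1.43 and 9.24 CPM, at least 346-fold higher (adjusted p = 0.0245). In these 3 genes CON-OLD-iBP 2 was far below the other treated libraries. Plet1, a surface protein gene, was at 13.1, 1.49 and 2.78 CPM (at least 314-fold) and Klra4, a receptor gene of natural killer cells with close paralogs, at 21, 7.03 and 6.02 CPM (at least 616-fold). Klra4 stood at 7.04, 9.07 and 6.6 CPM in OLD, near 2 of the treated libraries.

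Other genes of the skin surface rose from low levels. Sprr1a, which encodes a protein cross-linked into the epidermal surface, rose from 0.141, 0 and 0.214 to 62.4, 7.65 and 56.7 CPM (log2 fold change 8.49 ± 1.16 SE, edgeR adjusted p = 0.0166). Crct1, a gene of the same chromosomal cluster, rose from 1.51, 0.263 and 0.768 to 219.5, 86.7 and 200.2 CPM (log2 fold change 7.67 ± 0.73 SE, edgeR adjusted p = 0.00883). Lce1g rose from 3.82, 1.86 and 12.2 to 244, 90.2 and 190.0 CPM (4.89, adjusted p = 0.0233). CON-OLD-iBP 2 was again the lowest of the treated libraries in all 3. Lce and Sprr genes are close copies, and reads may be split among them. Calls of such genes depended on the fit. Of the cornified envelope list the main fit called 11 higher, the fit over all 18 libraries 1 and DESeq2 16. Without CON-OLD-iBP 2 there were 13, and without any 1 of the other libraries 0 to 3. Most members could pass the count filter only through the treated libraries, so these counts show the dependence on the fit alone. Outside the comparison, YOUNG 3 held 60.3 CPM of Crct1, 110.2 CPM of Lce1g and 16.6 CPM of Sprr1a.

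**Figure D2:**
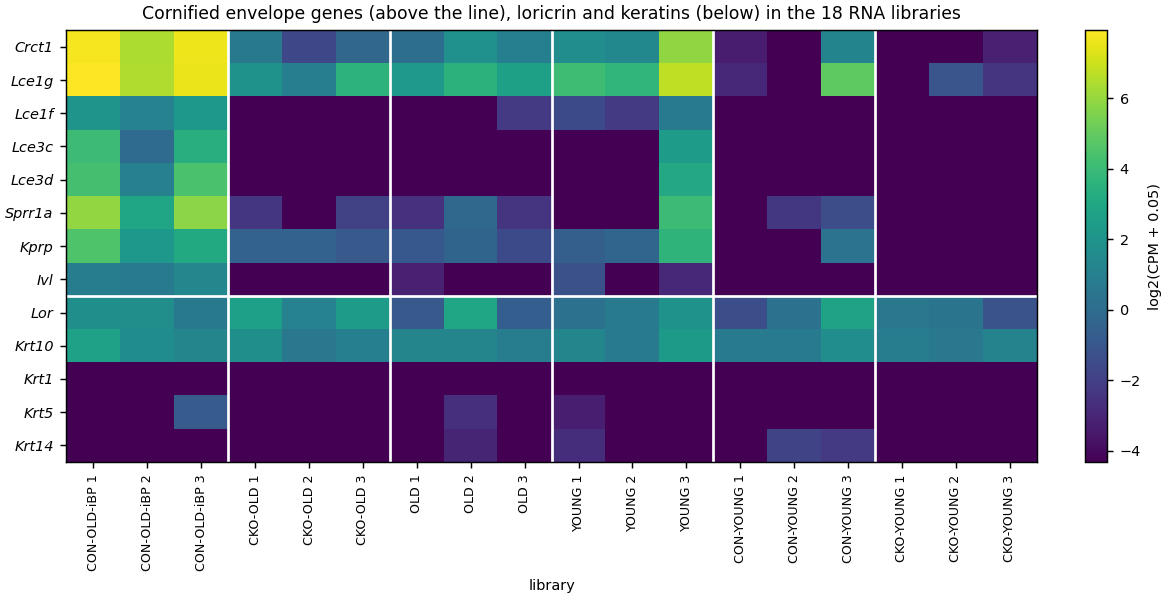
Colour shows log2(CPM + 0.05) of genes of the cornified envelope, the outer protein layer of skin cells (above the white line), and of loricrin (Lor) and keratins (below it) in each of the 18 RNA libraries. Loricrin is an envelope protein too and was not called. The choice and order of the genes were made after the values were seen. All 3 CON-OLD-iBP libraries and YOUNG 3 are bright for Crct1, Lce1g and Sprr1a, while Krt1 is at 0 in the 6 libraries compared.

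Keratinocyte markers gave no call. In the 6 libraries Krt1 and Krt14 had 0 counts, and Krt5 had 0 in 5 libraries and 0.527 CPM in CON-OLD-iBP 3. The envelope protein loricrin, Lor, stood at 5.91, 2.1 and 5.39 against 3.37, 3.27 and 1.5 CPM (-0.70, adjusted p = 0.456), and Krt10 at 3.4, 1.47 and 1.93 against 6.48, 3.1 and 2.33 CPM (0.83, adjusted p = 0.379). Of 32 keratinocyte and epithelial markers, a list written after the values were seen, 16 were tested and edgeR called 0, with 5 at an unadjusted p under 0.05. By DESeq2, 1 was higher and 2 were lower. Their summed share of the counts was 0.00715, 0.00613 and 0.0135% in CKO-OLD and 0.0237, 0.0196 and 0.0088% in CON-OLD-iBP. The part of skin cells in the rise of the envelope genes was not tested.

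Proteins of the AP-1 family, dimers of Fos and Jun members, bind TGANTCA. Of this family Fos and Junb were called lower in CON-OLD-iBP and Fosl1 higher. Promoters of Mmp10, Sprr1a, Ivl and Srxn1, genes that rose, are shown. The stretches are again the 150 bases before the RefSeq start (GRCm38.p6), 5′ to 3′ on the gene's strand, with TGANTCA in capitals.
Mmp10: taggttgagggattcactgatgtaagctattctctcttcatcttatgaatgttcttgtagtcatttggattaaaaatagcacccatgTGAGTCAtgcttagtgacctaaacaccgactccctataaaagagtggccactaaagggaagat
Sprr1a: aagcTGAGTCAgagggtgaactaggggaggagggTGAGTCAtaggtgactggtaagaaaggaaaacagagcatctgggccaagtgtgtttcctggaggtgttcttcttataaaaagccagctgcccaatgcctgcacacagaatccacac
Ivl: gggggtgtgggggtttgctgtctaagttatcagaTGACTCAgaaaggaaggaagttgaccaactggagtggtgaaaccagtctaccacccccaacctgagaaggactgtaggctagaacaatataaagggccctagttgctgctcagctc
Srxn1: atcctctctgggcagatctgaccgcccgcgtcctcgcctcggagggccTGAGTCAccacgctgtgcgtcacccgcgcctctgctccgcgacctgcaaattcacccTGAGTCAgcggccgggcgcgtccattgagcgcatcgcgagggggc
TGANTCA reads the same on both strands apart from its middle base, and was found in 4.24% of the 32851 promoter windows. Mmp10 (chr9:7502192-7502341, plus strand) has 1 match, whose first base lies 63 bases before the start. Sprr1a (chr3:92485882-92486031, minus strand) has 2 at 146 and 116 bases, Ivl (chr3:92573736-92573885, minus strand) 1 at 116 bases and Srxn1 (chr2:152105374-152105523, plus strand) 2 at 102 and 45 bases. TATAAA, searched on the gene's strand and its complement, was present in Mmp10, Sprr1a and Ivl and absent from Srxn1, against 7.57% of all windows. The genes were picked by hand after their values were seen, and windows of other genes that rose are not shown. The matches thus describe these 4 windows alone and give no share among genes that rose. A part of AP-1 in these changes was not tested. Ivl, involucrin, was at 0 in CKO-OLD and at 1.7, 1.58 and 2.47 CPM in CON-OLD-iBP, at least 103-fold higher (adjusted p = 0.0177). Srxn1, sulfiredoxin, an enzyme that restores oxidised peroxiredoxins, rose from 102, 94.6 and 97 to 1035, 639 and 1026 CPM (log2 fold change 3.23 ± 0.26 SE, edgeR adjusted p = 0.00575).

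**Figure D3:**
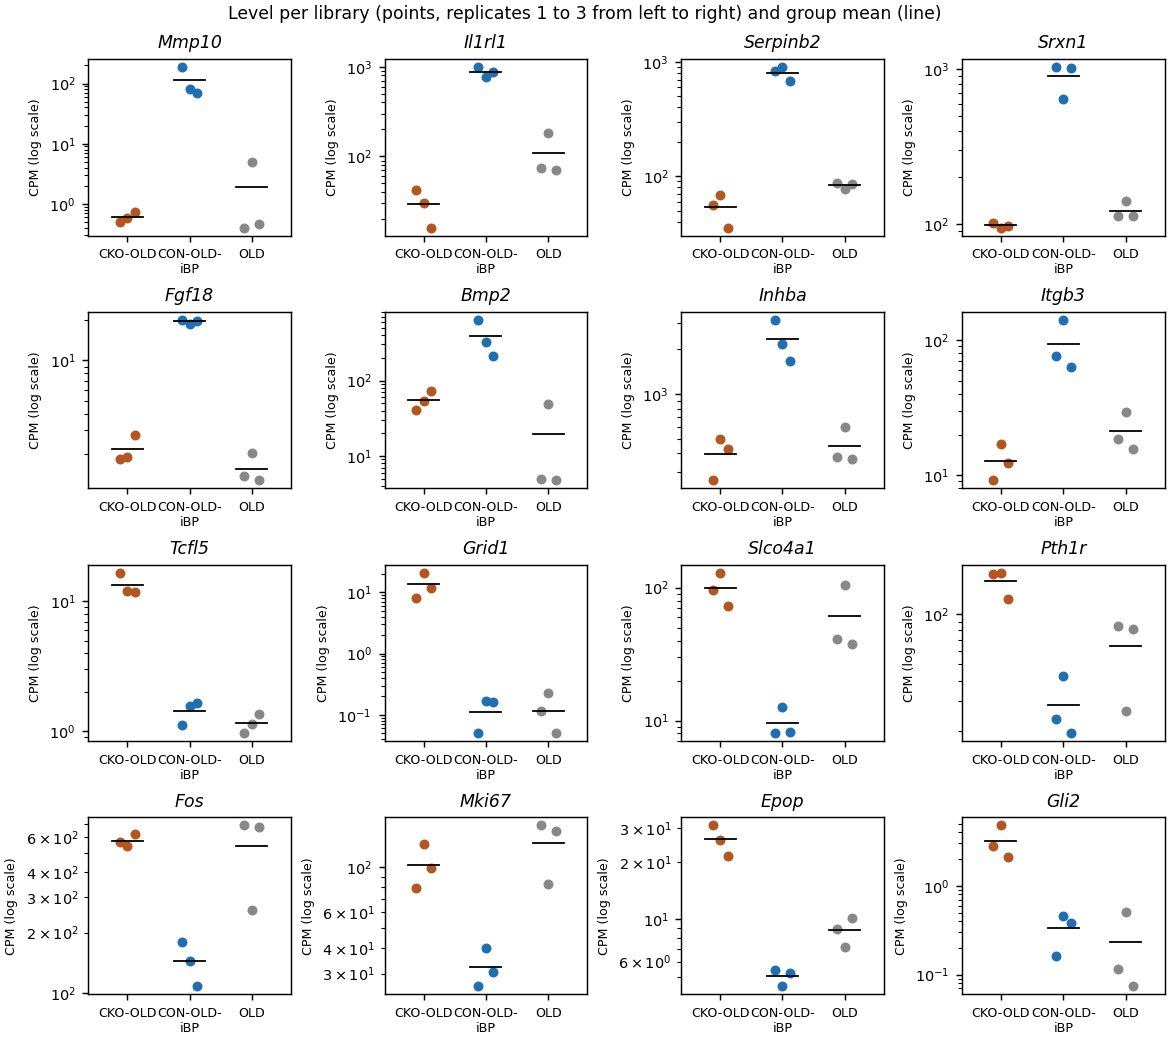
CPM on a log axis of 16 genes in CKO-OLD, CON-OLD-iBP and OLD, with a point per library (replicates 1 to 3 from left to right) and a line at the group mean. The upper 8 genes are higher in CON-OLD-iBP and the lower 8 higher in CKO-OLD, with no overlap between these 2 groups. For Mmp10, Il1rl1, Grid1 and Slco4a1 no overlap was a condition of their choice. OLD lies near CKO-OLD for Srxn1 and Serpinb2, near CON-OLD-iBP for Tcfl5 and Grid1, and is split for Fos.

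Immediate early genes, which are switched on within minutes of a stimulus, were mostly lower in CON-OLD-iBP. Of 20 tested, 10 fell and 0 rose, with a median log2 fold change of -0.94. Fos stood at 569.7, 539.7 and 621 CPM in CKO-OLD 1, 2 and 3 and at 179, 145 and 108 CPM in CON-OLD-iBP 1, 2 and 3 (log2 fold change -1.98 ± 0.24 SE, edgeR adjusted p = 0.0149). Zfp36, which shortens the life of inflammatory mRNAs, was at 314, 265 and 316 against 74.9, 100.5 and 60.6 CPM (-1.90, adjusted p = 0.0152). The zinc finger factor Egr2 was at 22.9, 26.4 and 22.8 against 6.18, 8.73 and 7.68 CPM (-1.65, adjusted p = 0.016) and the stress factor Atf3 at 72.7, 57.8 and 46.7 against 17.9, 9.23 and 14.8 CPM (-2.06, adjusted p = 0.0177). Egr1, Junb, Ier2, Nr4a1, Btg2 and Klf2 were the other members that fell, with log2 fold changes of -1.21, -1.24, -1.34, -1.64, -0.96 and -0.77. In each of the 10 the 3 treated libraries lay below the 3 knockout ones. Jun, at 253, 236 and 283 against 192, 196 and 119 CPM, was not called (-0.58, adjusted p = 0.182). Fosl1, the Fos family member Fra-1, went the other way and rose from 31.4, 34.1 and 31.2 to 129, 102 and 70.3 CPM (log2 fold change 1.67 ± 0.23 SE, edgeR adjusted p = 0.0176). In the fit over all 18 libraries edgeR called 0 immediate early genes, with 11 at an unadjusted p under 0.05 and a median of -0.97, while DESeq2 called 12 lower. The list's mean log2(CPM + 0.5) fell into separate ranges, 7.63, 7.55 and 7.59 in CKO-OLD against 6.87, 6.69 and 6.38 in CON-OLD-iBP. Without CON-OLD-iBP 1, 1 member stayed called, without CON-OLD-iBP 3 there were 3, and without CON-OLD-iBP 2 there were 7. Without any 1 of the CKO-OLD libraries edgeR called 0 members, with 12 to 14 at an unadjusted p under 0.05. In OLD, Fos was at 686, 258 and 677 CPM, so 2 of its libraries lay above the knockout.

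Signals of bone growth were called in several pathways. In the FGF pathway 4 of 21 tested genes rose and 1 fell. The fit over all 18 libraries called 1 higher and 1 lower, with 7 at an unadjusted p under 0.05, and DESeq2 6 higher and 2 lower. Fgf18, a ligand needed for skeletal growth, was at 1.83, 1.91 and 2.79 CPM in CKO-OLD and at 20.1, 18.9 and 19.8 CPM in CON-OLD-iBP (log2 fold change 3.20 ± 0.26 SE, edgeR adjusted p = 0.00575). The treated libraries lay close together, and OLD stood below the knockout mean at 1.36, 2.02 and 1.27 CPM. The ligand Fgf2 rose from 11.3, 13.4 and 21.4 to 40.6, 38.2 and 36.2 CPM (1.35, adjusted p = 0.0358). The feedback inhibitor Spry2 rose from 38.5, 36 and 39.7 to 135, 76.5 and 80.5 CPM (1.38, adjusted p = 0.0321) and Spred1, of the same family, from 101, 114 and 107 to 268, 201 and 214 CPM (1.11, adjusted p = 0.0239). The receptor Fgfr2 was the member that fell, from 63.2, 86.5 and 126 to 32.6, 31.7 and 16.8 CPM (-1.74, adjusted p = 0.0375).

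Of 28 BMP pathway genes 3 rose and 2 fell, and in the fit over all 18 libraries edgeR called 0, with 8 at an unadjusted p under 0.05. Bmp2, a ligand that induces bone, stood at 41.2, 53.1 and 73.3 CPM in CKO-OLD 1, 2 and 3 and at 635, 322 and 212 CPM in CON-OLD-iBP 1, 2 and 3 (log2 fold change 2.83 ± 0.44 SE, edgeR adjusted p = 0.0223). OLD held 4.93, 48.4 and 4.76 CPM, with OLD 2 at the level of the knockout. The groups did not overlap. The receptor Bmpr1b rose from 9.29, 3.17 and 6.38 to 57.4, 25.5 and 30.1 CPM (2.61, adjusted p = 0.0335). The antagonist chordin, Chrd, fell from 14.8, 18 and 10.6 to 2.87, 5.17 and 1.74 CPM (-2.11, adjusted p = 0.042), and Id2, a target gene of BMP signals, from 71.8, 83.6 and 71.5 to 33.6, 23 and 28.8 CPM (-1.38, adjusted p = 0.0164). Bmpr1b, Chrd and Id2 did not overlap between the groups either. Outside the comparison, YOUNG 3 held 251 CPM of Bmp2 and 31.7 CPM of Bmpr1b, inside the treated ranges. YOUNG 1 and 2 held 7.77 and 9.23 CPM of Bmp2 and 1.63 and 2.75 CPM of Bmpr1b. In the TGF-beta pathway 2 of 20 rose and 0 fell. The fit over all 18 libraries called 0, with 4 at an unadjusted p under 0.05, and DESeq2 2 higher and 2 lower. Inhba, the activin A subunit, rose from 264, 504 and 429 to 3152, 2186 and 1682 CPM (2.58, adjusted p = 0.0167).

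Hedgehog genes lay lower in CON-OLD-iBP: 11 of 13 tested were negative, 2 fell and 0 rose (median -0.79). The transcription factor Gli2 fell from 2.84, 4.78 and 2.09 to 0.162, 0.459 and 0.385 CPM (-3.23, adjusted p = 0.0346). The co-receptor Gas1 fell from 224, 305 and 201 to 25.7, 80.4 and 49.2 CPM (-2.20, adjusted p = 0.0346). Gli1, the usual read-out of the pathway, was at 3.46, 4.2 and 3.54 against 0.424, 0.0734 and 0 CPM, without overlap between groups but not called (-4.45, adjusted p = 0.0673). The receptor and target Ptch1 was at 22.2, 28.1 and 32.3 against 18.1, 20.0 and 8.59 CPM (-0.79, adjusted p = 0.191). For Gli1 and Gli2 the OLD libraries lay near the treated ones, with 0.275, 0.407 and 0.671 CPM of Gli1 and 0.116, 0.513 and 0.0746 CPM of Gli2.

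Among 21 genes of the IGF pathway and imprinted growth genes, the binding protein gene Igfbp3 was the only one called, and rose from 12.7, 8.2 and 15 to 41, 31.4 and 44.9 CPM (1.73, adjusted p = 0.0233). Igf2, an imprinted growth factor gene, was at 50.7, 114 and 123 against 1.17, 59.8 and 2.8 CPM and not called (-2.14, adjusted p = 0.35), with CON-OLD-iBP 2 above CKO-OLD 1. Of 13 Notch genes edgeR called 0, with 1 at an unadjusted p under 0.05, and DESeq2 0 higher and 1 lower. Lfng and Rfng, glycosyltransferases that act on Notch receptors, had the smallest p, with log2 fold changes of -1.26 and -0.42.

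Few Wnt genes were called. Of 14 ligands tested, Wnt2 rose from 1.51, 1.47 and 1.46 to 4.71, 10.2 and 4.32 CPM (log2 fold change 2.14 ± 0.43 SE, edgeR adjusted p = 0.0387), and 10 were negative (median -0.48). Wnt10b, known for driving bone formation, was at 28.1, 30.6 and 15.2 against 6.38, 13.9 and 2.84 CPM (-1.65, adjusted p = 0.128). Wnt6 was at 1.41, 3.47 and 2.7 against 0.303, 0.183 and 0 CPM (-3.91, adjusted p = 0.0829). In both the groups did not overlap, and OLD held 5.68, 9.59 and 5.36 CPM of Wnt10b and 0.0435, 0.124 and 0.0597 CPM of Wnt6. Wnt16, a ligand of cortical bone, was at 3.2, 8.11 and 0.857 against 0.545, 0.624 and 1.82 CPM, with overlap (-1.99, adjusted p = 0.205). The R-spondins, which amplify Wnt signals, gave 0 calls of 3 by edgeR, with 2 at an unadjusted p under 0.05, while DESeq2 found 0 higher and 2 lower. In the edgeR fit Rspo1 differed by -2.19 (adjusted p = 0.123) and Rspo2 by -2.79 (adjusted p = 0.115).

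Wnt receptors and co-receptors were negative in 16 of 19 (median -0.51), and edgeR called 0, with 5 at an unadjusted p under 0.05, while DESeq2 found 1 higher and 3 lower. Fzd5, a Frizzled receptor, was at 80.0, 133 and 113 against 66.3, 66.8 and 36.2 CPM (-0.91, adjusted p = 0.109). The R-spondin receptor Lgr4 went the other way, at 27.9, 24.8 and 43.4 against 90.2, 57.9 and 70.9 CPM (1.21, adjusted p = 0.051). Secreted antagonists were negative in 8 of 9 (median -0.75), and edgeR called 0, with 3 at an unadjusted p under 0.05, while DESeq2 found 0 higher and 1 lower. Frzb stood at 15, 24.5 and 28.6 against 8.81, 10.9 and 3.47 CPM (-1.53, adjusted p = 0.0914) and Sfrp1 at 24.7, 201 and 154 against 9.25, 47 and 20.1 CPM (-2.28, adjusted p = 0.142). Ligands, receptors and antagonists thus had medians below that of all genes (0.01).

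Beta-catenin target genes were positive in 11 and negative in 10 of 21, with a median of 0.13 that became -0.25 with no filter on low counts. The adhesion receptor Cd44, also a target of other pathways, was the only member called, and rose from 403, 325 and 357 to 1981, 1669.7 and 1212 CPM (log2 fold change 2.19 ± 0.26 SE, edgeR adjusted p = 0.0149). Axin2, the usual target gene, was at 5.05, 6.39 and 8.09 CPM in CKO-OLD 1, 2 and 3 and at 7.27, 16 and 12.4 CPM in CON-OLD-iBP 1, 2 and 3 (log2 fold change 0.90 ± 0.34 SE, edgeR adjusted p = 0.163). CON-OLD-iBP 2 and 3 were above all 3 knockout libraries and CON-OLD-iBP 1 was not. Lef1, a transcription factor and target of the pathway, stood at 1.09, 0.823 and 2.02 against 1.96, 1.36 and 1.28 CPM (0.25, adjusted p = 0.81). Among 27 intracellular components edgeR called 0, 6 lay at an unadjusted p under 0.05, and by DESeq2 3 were higher and 1 lower. The transcription factor Tcf7 was at 9.05, 7.41 and 6.57 against 13.8, 13.5 and 15.2 CPM (0.91, adjusted p = 0.0605) and the corepressor Tle1 at 57.8, 38.1 and 46.8 against 78.5, 83.2 and 101 CPM (0.91, adjusted p = 0.0549), without overlap between groups.

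Of the Polycomb genes 4 were called. In PRC1.1, Bcor, the scaffold of the complex, fell from 69.2, 119.8 and 97.8 to 31.3, 43.1 and 18.6 CPM (log2 fold change -1.59 ± 0.34 SE, edgeR adjusted p = 0.0449) and was the only one of 10 genes called. OLD stood near the treated cells at 32.7, 37.2 and 30.6 CPM. Of the 10 genes the fit over all 18 libraries called 0, with 2 at an unadjusted p under 0.05, and DESeq2 0 higher and 1 lower. Without CON-OLD-iBP 2 edgeR called 1 lower, and without any 1 of the other libraries 0. Pcgf1, the subunit that defines PRC1.1, was at 11.7, 8.58 and 8.89 against 13.3, 8.75 and 19.1 CPM (0.52, adjusted p = 0.361). The ubiquitin ligase Rnf2 was at 40.1, 40.1 and 42.3 against 37.7, 31.9 and 47.4 CPM (-0.04, adjusted p = 0.921), and both overlapped between groups. Of 22 other PRC1 genes edgeR called 0, with 6 at an unadjusted p under 0.05, and DESeq2 1 higher and 2 lower. Pcgf2 and Phc1 came nearest, with log2 fold changes of -0.64 and -0.83 and adjusted p of 0.0644 and 0.0595.

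In PRC2, which methylates histone H3, 2 of 12 genes fell and 1 rose. The fit over all 18 libraries called 1 higher and 1 lower, with 4 at an unadjusted p under 0.05, and DESeq2 1 higher and 3 lower. Without CON-OLD-iBP 2 edgeR called 1 higher and 2 lower, and without CKO-OLD 1 it called 0. Leaving out any 1 of the other libraries gave 1 lower and 0 higher. Epop, an elongin-binding partner, fell from 31.1, 26.1 and 21.6 to 5.43, 4.48 and 5.23 CPM (log2 fold change -2.35 ± 0.22 SE, edgeR adjusted p = 0.00883), with OLD between at 8.91, 7.2 and 10.2 CPM. The methyltransferase Ezh2 fell from 21.4, 21.3 and 18.9 to 12.2, 10.9 and 9.77 CPM (-0.87, adjusted p = 0.0465), and Aebp2, a cofactor, rose from 99.1, 96.7 and 91.1 to 169.6, 153 and 218 CPM (0.94, adjusted p = 0.0375). The core subunits Eed and Suz12 and the second methyltransferase Ezh1 were not called, with log2 fold changes of -0.30, -0.22 and 0.05. Of 9 histone H2A deubiquitinase genes 0 were called by edgeR or DESeq2 and 0 lay at an unadjusted p under 0.05. Asxl2 and Usp21, of smallest p, had log2 fold changes of 0.43 and -0.34. Among 11 CxxC domain genes edgeR called 0, 2 lay at an unadjusted p under 0.05, and by DESeq2 0 were higher and 1 lower. The DNA methyltransferase Dnmt1 stood at 67.3, 106 and 89.6 against 39.6, 62.8 and 46.4 CPM (-0.79, adjusted p = 0.0997).

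Developmental transcription factors, the kind of gene that Polycomb holds silent, were tested in 67 of 113 listed members. Of these 2 rose and 3 fell, 39 were negative and 28 positive (median -0.36). The median rests on genes of low count: with a filter of 1 CPM in 3 libraries it was 0.01. The members that fell were Lhx2, Tcfl5 and En2, given above. Meox2, a homeobox factor of limb muscle, rose from 6.88, 3.45 and 4.29 to 15, 11.9 and 18.2 CPM (1.65, adjusted p = 0.0385). Foxl2, an ovarian factor, stood at 2.96, 4.1 and 2.09 against 0.364, 0.349 and 0 CPM and was not called (-3.63, adjusted p = 0.0933), although the groups did not overlap. Nkx6-1, a neural tube and islet factor, overlapped between the groups at 1.55, 3.4 and 1.89 against 4.02, 1.19 and 2.78 CPM (0.25, adjusted p = 0.817). Treated levels of Foxl2 were near OLD (0.0724, 0.141 and 0.0448 CPM), and those of Nkx6-1 were above OLD (0.174, 0 and 0 CPM). Of 34 Hox genes edgeR called 0, with 4 at an unadjusted p under 0.05, and DESeq2 0 higher and 2 lower. Hoxc10 was at 73.7, 61.9 and 86.8 against 35.9, 46.8 and 43.3 CPM (-0.79, adjusted p = 0.0627) and Hoxa13 at 0.865, 0.736 and 0.822 against 0.0808, 0.202 and 0 CPM (-3.03, adjusted p = 0.158).

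Among 26 genes of bone matrix and mineralisation 1 rose and 1 fell (median -0.41). The fit over all 18 libraries called 0 higher and 1 lower, with 9 at an unadjusted p under 0.05, and DESeq2 2 higher and 5 lower. Pth1r, the receptor of parathyroid hormone, fell from 172, 176 and 122 to 23.6, 42.3 and 19.4 CPM (log2 fold change -2.43 ± 0.33 SE, edgeR adjusted p = 0.0164), with OLD at 84.2, 26.4 and 81.8 CPM. Mgp, matrix Gla protein, an inhibitor of mineralisation, rose from 97.9, 93 and 121 to 487, 303 and 427 CPM (log2 fold change 1.99 ± 0.24 SE, edgeR adjusted p = 0.0149). Neither overlapped between the groups. Bglap, which encodes osteocalcin, stood at 83.5, 43.2 and 49.5 against 31.8, 44.5 and 31.2 CPM (-0.69, adjusted p = 0.2). The mineralisation enzyme Alpl stood at 335, 672 and 308 against 207, 197 and 43.4 CPM (-1.52, adjusted p = 0.164) and bone sialoprotein, Ibsp, at 123, 48.7 and 38.1 against 92, 50.8 and 16.5 CPM (-0.38, adjusted p = 0.768). Alpl did not overlap between groups, while Bglap and Ibsp did. Among 20 osteoblast transcription factors Fosl1 rose, as above, and Snai2, a factor of mesenchymal cells, fell from 75.2, 105 and 78.1 to 18.9, 39.8 and 27.2 CPM (-1.55, adjusted p = 0.0352). Of these 20 the fit over all 18 libraries called 0, with 9 at an unadjusted p under 0.05, and DESeq2 1 higher and 5 lower. Sp7, osterix, was at 124, 146 and 119 against 34.7, 78.5 and 25.6 CPM (-1.45, adjusted p = 0.0813). Runx2, which commits cells to the lineage, was at 53.6, 84.6 and 90.8 against 39.2, 62.2 and 47.3 CPM (-0.59, adjusted p = 0.209).

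Osteocyte genes gave 0 calls of 5 by edgeR, with 0 at an unadjusted p under 0.05 and 0 higher and 0 lower by DESeq2. Dmp1, a matrix protein of osteocytes, was at 63.1 CPM in CKO-OLD 1 and at 0.709 to 8.71 CPM in the other 5 libraries, and Pdpn at 491, 378 and 269.6 against 570.4, 792 and 441 CPM. Of 14 signals that couple osteoblasts to osteoclasts, Il34, a ligand of the CSF1 receptor, was the only one called, and rose from 17.6, 14.6 and 16.9 to 45.3, 53.3 and 27.2 CPM (1.39, adjusted p = 0.0372). RANKL, Tnfsf11, which induces osteoclasts, stood at 2.77, 8.23 and 3.23 against 2.97, 2.26 and 2.59 CPM (-0.83, adjusted p = 0.33). Its decoy receptor Tnfrsf11b was at 24.3, 15.8 and 317 against 975, 278 and 218 CPM (2.07, adjusted p = 0.322), with CKO-OLD 3 above 2 of the treated libraries. Csf1, the main CSF1 receptor ligand, overlapped as well (0.33, adjusted p = 0.616).

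Of 26 collagen genes 1 rose and 1 fell. Col5a3, a minor fibrillar collagen, rose from 39.7, 61.5 and 31.1 to 251, 212 and 216 CPM (log2 fold change 2.39 ± 0.27 SE, edgeR adjusted p = 0.013). Col8a2, a network collagen, fell from 40.5, 41 and 43.7 to 9.35, 14.2 and 4.05 CPM (log2 fold change -2.15 ± 0.41 SE, edgeR adjusted p = 0.0371). Of 26 matrix proteases and inhibitors Mmp10 rose and Mmp23, a membrane-bound protease, fell from 272, 219.6 and 164 to 73.9, 94.3 and 56.4 CPM (-1.52, adjusted p = 0.0324). Serpinb2, plasminogen activator inhibitor-2, and Thbd, thrombomodulin, were chosen after their values were seen. Serpinb2 rose from 55.8, 69 and 35.5 to 824, 900.1 and 686 CPM (3.94, adjusted p = 0.00575), and Thbd from 122, 84.3 and 114 to 1806, 962 and 972 CPM (3.57, adjusted p = 0.00924).

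Genes of cell division lay lower in CON-OLD-iBP. All 40 tested were negative with a median of -1.09, 10 fell and 0 rose. In 33 of the 40 the groups did not overlap, which held in this direction for 16.7% of all genes. Mki67, the proliferation marker, stood at 79.3, 130.4 and 99.6 CPM in CKO-OLD 1, 2 and 3 and at 26.1, 40.1 and 30.7 CPM in CON-OLD-iBP 1, 2 and 3 (log2 fold change -1.64 ± 0.24 SE, edgeR adjusted p = 0.0202). Thymidine kinase, Tk1, was at 27.9, 28.1 and 24.2 against 6.63, 10.4 and 6.81 CPM (-1.72, adjusted p = 0.0172). The mitotic kinase Aurkb was at 12.1, 18.8 and 11.2 against 3.35, 4.92 and 3.26 CPM (-1.84, adjusted p = 0.0287) and Cdk1 at 50.2, 43.9 and 44 against 20.4, 24.9 and 19.8 CPM (-1.06, adjusted p = 0.0269). Top2a, Ccna2, Ccnb2, Ube2c, Nusap1 and Cdc6 were the other members that fell, with log2 fold changes of -1.39, -1.11, -1.19, -1.05, -1.26 and -1.44. Pcna, the DNA clamp, overlapped at 93.7, 81.6 and 52.6 against 65.1, 59.4 and 66.8 CPM (-0.23, adjusted p = 0.592). The list's mean log2(CPM + 0.5) was 4.67, 4.92 and 4.73 in the knockout libraries against 3.54, 4.09 and 3.49 in the treated ones. In the fit over all 18 libraries edgeR called 0 of the 40, with 23 at an unadjusted p under 0.05, and all 40 were negative there as well. DESeq2 put 28 lower. CON-OLD-iBP 2 was nearest to the knockout, and without it 30 members were called. Leaving out any 1 of the other 5 libraries gave 0 calls by edgeR, with 27 to 31 at an unadjusted p under 0.05.

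Among 21 cell cycle inhibitors and p53 targets Cdkn2d, an inhibitor of cyclin D kinases, was the only member called, and fell from 24, 20.9 and 19.6 to 5.27, 7.17 and 7.34 CPM (-1.68, adjusted p = 0.0162). Cdkn2a, a marker of senescence, was at 144, 77.5 and 97.9 CPM in CKO-OLD 1, 2 and 3 and at 80.2, 167 and 176 CPM in CON-OLD-iBP 1, 2 and 3 (0.43, adjusted p = 0.503). Its groups overlapped, with CON-OLD-iBP 1 below CKO-OLD 1 and 3.

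**Figure D4:**
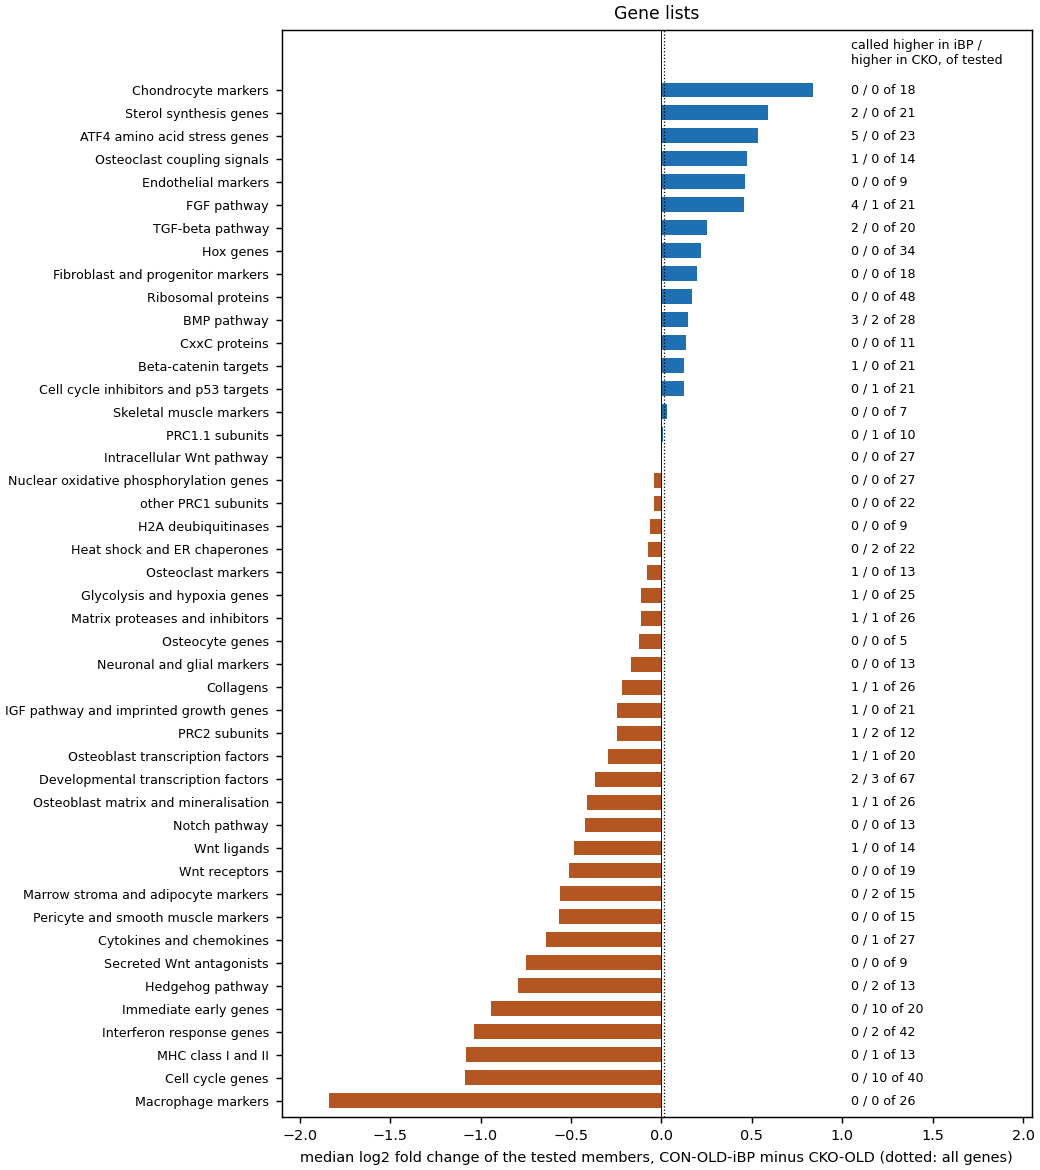
Bars give the median log2 fold change, CON-OLD-iBP minus CKO-OLD, of the tested members of each gene list with 5 or more of them, and the dotted line the median of all 15292 genes (0.01). The column at the right gives the members called higher in CON-OLD-iBP and higher in CKO-OLD, of those tested: cell cycle and immediate early genes have 10 calls each, all higher in CKO-OLD, and macrophage markers the lowest median (-1.84) with no call.

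Amino acid stress and sterol genes lay higher in CON-OLD-iBP. Of 23 genes under ATF4, the factor that answers a shortage of amino acids, 5 rose and 0 fell (median 0.53). Chac1, which degrades glutathione, rose from 14.5, 14.7 and 20.6 to 44.6, 59.4 and 39.9 CPM (log2 fold change 1.56 ± 0.23 SE, edgeR adjusted p = 0.0203). The pseudokinase Trib3 rose from 12.7, 9.33 and 7.45 to 28.1, 33.4 and 29 CPM (1.64, adjusted p = 0.0196). The amino acid transporter Slc7a5, asparagine synthetase Asns and the stress factor Ddit3 (CHOP) were the others, with log2 fold changes of 1.47, 0.79 and 1.47. In all 5 the treated libraries lay above the knockout ones. The fit over all 18 libraries called 2 members higher, with 9 at an unadjusted p under 0.05, and DESeq2 8 higher and 2 lower. Without any 1 of the CKO-OLD libraries or CON-OLD-iBP 1 edgeR called 0 members.

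Of 21 sterol synthesis genes 19 were positive, 2 rose and 0 fell (median 0.59). Cyp51 rose from 62.3, 71.8 and 74 to 215, 172 and 123 CPM (1.32, adjusted p = 0.0306) and Msmo1 from 43.6, 41.6 and 49.7 to 151, 95.7 and 82.8 CPM (1.32, adjusted p = 0.0347), and both enzymes demethylate sterols. Without CON-OLD-iBP 2 the median of the list was 0.34, and without CON-OLD-iBP 3 it was 0.80. The fit over all 18 libraries called 0 members, with 3 at an unadjusted p under 0.05, and DESeq2 6 higher and 0 lower. Without any 1 of the CKO-OLD libraries or CON-OLD-iBP 1 edgeR called 0 members.

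Of 22 chaperone genes 2 fell and 0 rose. They were the inducible heat shock genes Hspa1b, which fell from 127, 252 and 193 to 32.2, 53.8 and 23.4 CPM (-2.35, adjusted p = 0.0239), and Hspa1a, near-identical copies whose reads may be split. Hspa1a fell from 81.7, 129.7 and 125 to 36.7, 35.2 and 19.4 CPM (-1.85, adjusted p = 0.0248). The constitutive Hspa8 overlapped at 2241, 1710.4 and 1905 against 1927, 1792 and 2184 CPM (0.04, adjusted p = 0.939). Among 25 glycolysis and hypoxia genes Ndrg1, a gene induced by low oxygen, was the only member called, and rose from 12.8, 15 and 17.6 to 273, 85.2 and 161 CPM (log2 fold change 3.54 ± 0.42 SE, edgeR adjusted p = 0.0149). Nuclear genes of oxidative phosphorylation gave 0 calls of 27 by edgeR, with 0 at an unadjusted p under 0.05 and 0 higher and 0 lower by DESeq2. Sdha, a subunit of complex II, had a log2 fold change of -0.39. Ribosomal protein genes were positive in 44 of 48, with 0 called by edgeR and by DESeq2 and 1 at an unadjusted p under 0.05. Their median of 0.17 became -0.09 without CON-OLD-iBP 3. That library and CKO-OLD 1 took 3.53% and 3.36% of their counts from these genes, against 1.81% to 2.37% in the other 4.

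Macrophage markers had the lowest median of the lists in the plot of medians, and all 26 were negative (median -1.84), 18 of them without overlap between groups. By edgeR 0 were called, with 21 at an unadjusted p under 0.05, and by DESeq2 20 were lower. Their summed share of the counts was 0.254, 0.699 and 0.164% in CKO-OLD and 0.0577, 0.0735 and 0.114% in CON-OLD-iBP. CKO-OLD 2 held the most, and without it the median was -1.09 with 3 members positive. Spi1, the master factor of myeloid cells, stood at 29.6, 71.3 and 20.1 against 6.08, 8.75 and 12.9 CPM (-2.09, adjusted p = 0.06). The surface marker Adgre1 was at 33, 138 and 34.4 against 6.89, 14.3 and 12.1 CPM (-2.58, adjusted p = 0.0584) and lysozyme, Lyz2, at 1312, 3568 and 718 against 226, 305 and 513 CPM (-2.39, adjusted p = 0.0699). CKO-OLD 2 was the highest library in each of these 3. The leukocyte marker Ptprc was read in all 6 libraries, at 14.7, 68.4 and 15.3 against 5.92, 5.58 and 11.8 CPM. Levels of Lyz2 in OLD were 5534, 813 and 5499.6 CPM, so OLD 1 and 3 lay above all 6.

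Of 42 interferon response genes 36 were negative (median -1.04), 2 fell and 0 rose. In the fit over all 18 libraries edgeR called 0, with 5 at an unadjusted p under 0.05, and DESeq2 had 16 lower. The RNA sensor Ddx58 fell from 45.5, 96.3 and 61.3 to 28.5, 27 and 26.2 CPM (-1.28, adjusted p = 0.044). Isg15 and Irf7 were not called, with log2 fold changes of -1.46 and -1.35 and no overlap between groups. CKO-OLD 2 was the highest library in these 3 genes. Without it the median of the list was -0.46 and 33 were negative.

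Of 13 MHC genes 11 were negative (median -1.08), 1 fell and 0 rose. Nlrc5, the activator of class I genes, fell from 14, 39.5 and 21.5 to 3.72, 8.38 and 4.2 CPM (-2.17, adjusted p = 0.0476). The class I gene H2-K1 was at 313, 601 and 406 against 213, 249 and 122 CPM (-1.15, adjusted p = 0.0962). Neither overlapped between the groups. Among 27 cytokines and chemokines Tnf was the only member called, with 9 of the 27 positive and 18 negative, and fell from 7.58, 15.8 and 6.52 to 1.58, 1.43 and 0.892 CPM (-2.90, adjusted p = 0.0224). Il6 stood at 8.16, 8.13 and 7.5 against 3.29, 2.81 and 6.1 CPM (-0.94, adjusted p = 0.156). Macrophage markers moved with Tnf, Ccl3, Ccl4, Cd72 and the interferon and MHC genes, and their part in these results was not tested.

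**Figure D5:**
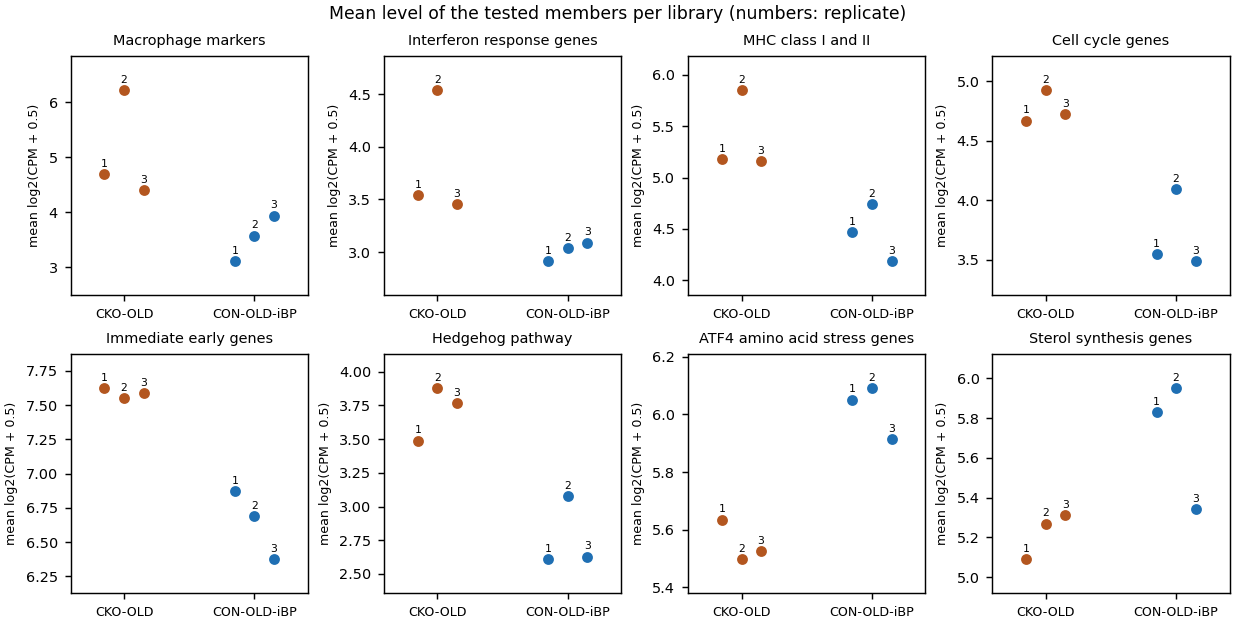
Points show the mean of log2(CPM + 0.5) over the tested members of 8 gene lists in each CKO-OLD and CON-OLD-iBP library, numbered by replicate. The 8 lists were picked by hand, and lists not shown include some whose groups overlap, such as collagens and the BMP and TGF-beta pathways. Macrophage, interferon and MHC lists are highest in CKO-OLD 2. The groups do not overlap in any of the 8 panels, and CON-OLD-iBP 3 lies just above the knockout in sterol synthesis.

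Of 13 osteoclast markers Itgb3, an integrin also made by other cells, was the only one called, and rose from 9.17, 16.9 and 12.3 to 76.1, 142 and 63.5 CPM (log2 fold change 2.91 ± 0.37 SE, edgeR adjusted p = 0.016). Acp5, the osteoclast phosphatase, was at 6.55, 95.1 and 3.66 against 4.44, 2.57 and 10.1 CPM, with CKO-OLD 2 far above the rest (-2.58, adjusted p = 0.234). The protease Ctsk was at 165, 164 and 116 against 249, 233 and 149 CPM (0.53, adjusted p = 0.247). Chondrocyte markers gave 0 calls of 18 by edgeR and by DESeq2, with 1 at an unadjusted p under 0.05. The cartilage collagen Col2a1 was at 499, 87.4 and 8014 against 7589.8, 12.1 and 264 CPM and aggrecan, Acan, at 16.3, 3.1 and 501 against 377, 0.0734 and 5.96 CPM, high in CKO-OLD 3 and CON-OLD-iBP 1. The median of the list was 0.84, but -1.93 without CON-OLD-iBP 1 and 2.95 without CKO-OLD 3. Sox9, the factor of cartilage, stood at 44.5, 36 and 118 against 258, 123 and 90.5 CPM (1.28, adjusted p = 0.201) and Prg4, lubricin, overlapped as well (0.56, adjusted p = 0.375).

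Of 15 marrow stroma and adipocyte markers 2 fell and 0 rose, both also made by macrophages. Lpl, lipoprotein lipase, fell from 135, 174 and 153 to 32.3, 28.1 and 63.8 CPM (-1.87, adjusted p = 0.0305) and the lipid carrier Apoe from 81.8, 239 and 74.7 to 16.5, 36.6 and 18 CPM (-2.44, adjusted p = 0.0493). Fibroblast and progenitor markers gave 0 calls of 18 by edgeR, with 2 at an unadjusted p under 0.05 and 0 higher and 1 lower by DESeq2. Pericyte and smooth muscle markers gave 0 of 15, with 5 at an unadjusted p under 0.05 and 3 higher and 0 lower by DESeq2. Most of these 15 lay lower in CON-OLD-iBP, with 4 positive and 11 negative (median -0.57). The fibroblast marker Dpt was at 0.221, 0.245 and 0.0536 against 0.485, 0.55 and 1.3 CPM. Of the pericyte and smooth muscle markers, Smtn was at 76.6, 101 and 133 against 366, 203 and 216 CPM and Rgs5 at 0.945, 1.1 and 0.679 against 1.52, 5.3 and 3.59 CPM. Endothelial markers gave 0 of 9, neuronal and glial markers 0 of 13 and skeletal muscle markers 0 of 7 by edgeR, with 1, 3 and 1 at an unadjusted p under 0.05. The calls by DESeq2 were 0, 1 and 1 higher and 1, 1 and 0 lower. The endothelial Pecam1 stayed under 1 CPM in all 6 libraries. Of 18 lymphoid and erythroid markers 2 had enough counts to be tested and 0 were called by edgeR, with 1 at an unadjusted p under 0.05: the neutrophil gene S100a8 stood at 0.402, 0.403 and 0.125 against 4.95, 0.826 and 4.24 CPM (3.45, adjusted p = 0.0594) and the erythroid enzyme Alas2 differed by -0.31 (adjusted p = 0.911).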

How the data were processed

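RNA was sequenced in 18 libraries, and 8 CUT&Tag libraries of the series were left out. The table deposited by the authors holds raw counts, whole numbers of reads for each gene symbol with no normalization. Per the submitters' processing notes, FastQC, Trim Galore and HISAT2 and the build mm39 were used. Not given in the sources used here are their versions, the counting program, its annotation and its use of strand. Antisense or overlapping genes and near-identical copies therefore could not be separated.

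Libraries were grouped by title, 3 a group. From the counts of the 6 libraries, low genes were removed with filterByExpr at its defaults (a count of 10, a total of 15) and library sizes were scaled by TMM. The main test was the robust, two-sided quasi-likelihood F test of edgeR (residual degrees of freedom: 4). Its p-values were adjusted by Benjamini-Hochberg over all 15292 genes, at a threshold of 0.05. All adjusted p-values are from this test unless another tool is named. The other RNA groups were left out of this fit because libraries within them differ in kind, and the fit over all 18 is an alternative. CPM in the text use TMM sizes of all 18 libraries, which differ from those of the 6 by factors of 1.009 to 1.047. SE is the log2 fold change divided by the square root of F. The fit was tested on simulated data. Alternatives were RLE and upper quartile scaling, no filter, a filter of 1 CPM in 3 libraries, DESeq2, limma-voom, all 18 libraries, a replicate block and each library left out. Versions were Python 3.11.15 with matplotlib 3.10.9, and R 4.3.3 with DESeq2 1.42.0, limma 3.58.1 and edgeR 4.0.16.

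The comparison, gene lists and rule for named genes were chosen with earlier results of these data known. The rule takes Kdm2b, Tcfl5, Axin2, Lef1, Bglap and Cdkn2a, and the 14 largest increases and decreases among called genes with at least 5 CPM on average in the higher group and no overlap, predicted symbols, Xist and Y-linked genes left out. It adds from each list the 4 called members of smallest adjusted p, or where none was called the 2 of smallest p. Other genes named, and the lists of cornified envelope, keratinocyte, NRF2, ribosome biogenesis, aminoacyl-tRNA synthetase, clock and EGF family genes, were chosen after their values were seen. Some genes that the rule names are not reported here. Lists are described by counts and medians, with no set test. Mitochondrially encoded genes were not among the symbols analysed here. Promoters are from a RefSeq table (GRCm38.p6), matched by symbol or synonym for 11998 of the 15292 tested genes (78.5%), so the planned comparison of promoter composition is void.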

Additional observations from a re-analysis of the deposited data

How the results depend on the processing

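Against 412 genes higher and 267 lower in CON-OLD-iBP, RLE scaling gave 398 and 279, upper quartile scaling 402 and 334, no filter 397 and 300, a filter of 1 CPM in 3 libraries 456 and 339, and limma-voom 409 and 277. DESeq2 called more, 1158 and 1238, and all 679 genes were among them. The fit over all 18 libraries called fewer, 119 and 94, of which 94 and 66 were shared. Leaving out each library in turn gave 0 to 620 higher and 0 to 684 lower. All 679 genes kept their sign in every alternative that gave them a value, of which the filter of 1 CPM tested 661. The cause of these shifts was not tested. Every left-out fit has fewer degrees of freedom than the main fit. Without CKO-OLD 1 there were 0 calls, and without CON-OLD-iBP 2 there were 620 higher and 684 lower. Deviations of same-numbered libraries correlated at 0.108, 0.41 and -0.218, so the numbers are not taken as pairs. With the replicate block 320 genes were higher and 329 lower, 269 and 175 of them shared, and this is a fit with fewer degrees of freedom. With a biological coefficient of variation of 39.8% and 3 libraries a group, precision is set by the spread between libraries more than by depth. Genes near 1 count (about 0.02 CPM) cannot be ranked.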

Other observations

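The lists in this section were written after the values were seen and carry no test of their own. Genes that build ribosomes lay higher in CON-OLD-iBP: of 46 ribosome biogenesis factors 45 were positive, 26 rose and 0 fell, with a median log2 fold change of 0.86, against 2.69% of all genes called in that direction. Tsr1, which matures the small subunit, rose from 40.4, 39.2 and 44.7 to 114, 92.1 and 129 CPM (1.46, adjusted p = 0.0149). Noc3l rose from 20.9, 21.8 and 24.7 to 57.4, 47.7 and 52.3 CPM (1.25, adjusted p = 0.016) and the snoRNP protein Nop58 from 69.1, 55.2 and 62.1 to 119, 97.6 and 116 CPM (0.86, adjusted p = 0.0371). Fibrillarin, Fbl, and nucleophosmin, Npm1, were not called, with log2 fold changes of 0.53 and 0.87. The list's mean log2(CPM + 0.5) was 5.55, 5.40 and 5.55 in the knockout libraries against 6.38, 6.18 and 6.37 in the treated ones, with no overlap. The fit over all 18 libraries called 7 and DESeq2 39, all higher. Without CON-OLD-iBP 3, 6 were called, without CON-OLD-iBP 2 there were 29, and without CKO-OLD 1, 2 or 3 or CON-OLD-iBP 1 edgeR called 0 with 38 to 42 at an unadjusted p under 0.05, while the medians stayed between 0.77 and 0.93 in the 6 fits. Of 20 cytosolic aminoacyl-tRNA synthetases 5 rose and 0 fell (Rars, Tars, Cars, Yars and Aars), with Rars at 104, 95.7 and 107 against 189.8, 217 and 211 CPM (1.04, adjusted p = 0.0209).

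Of 34 target genes of NRF2, the factor that answers oxidative stress, 6 rose and 0 fell. Beside Srxn1 they were Ugdh, which makes UDP-glucuronate (309, 278 and 322 against 1574, 965 and 1119.5 CPM; 2.04, adjusted p = 0.0152), thioredoxin reductase Txnrd1 (270.5, 267 and 285 against 761, 603 and 741 CPM; 1.38, adjusted p = 0.0169), Osgin1, the autophagy receptor Sqstm1 and Aldh3a1, with log2 fold changes of 1.46, 1.21 and 2.79 for the last 3. Of the best known targets none was called: Nqo1 was at 149.7, 54.1 and 142 against 166, 114 and 152 CPM (0.35, adjusted p = 0.624), Gclc at 89.1, 76.4 and 174 against 88.3, 89 and 94.9 CPM (-0.29, adjusted p = 0.61) and Hmox1 at 945, 818 and 821 against 1312, 2021 and 1159.9 CPM (0.83, adjusted p = 0.12). Of 7 tested EGF family ligands 2 rose (0 in the fit over all 18 libraries, with 3 at an unadjusted p under 0.05, and 4 by DESeq2): amphiregulin, Areg, from 0.442, 0.28 and 0.75 to 8.14, 2.7 and 5.19 CPM (3.46, adjusted p = 0.0305) and Hbegf from 90.7, 45.3 and 81.6 to 491, 249 and 190.2 CPM (2.12, adjusted p = 0.0385), while Ereg overlapped (1.72, adjusted p = 0.172). Most cornified envelope genes were at or near 0 in CKO-OLD and could pass the count filter only through the treated libraries. No tally of them is therefore set against all genes.

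Genes of the circadian clock were called in both directions, 1 higher and 5 lower of 19. Arntl, which encodes the activator BMAL1, rose from 18.6, 24.3 and 25 to 61.1, 66.8 and 64.2 CPM (1.53, adjusted p = 0.013). Dbp, an output gene that BMAL1 and CLOCK drive, fell from 26.1, 22.3 and 29 to 4.12, 6.29 and 3.14 CPM (-2.48, adjusted p = 0.0151), and Nfil3, which represses at the sites that DBP activates, from 48.7, 56.8 and 46.3 to 13.3, 14.4 and 13.7 CPM (-1.85, adjusted p = 0.00681). Npas2 and Bhlhe41 fell with log2 fold changes of -1.81 and -1.13, Rora fell from 64.9, 83.3 and 70.7 to 31, 38 and 38.2 CPM (adjusted p = 0.0305), and Clock was not called (0.05, adjusted p = 0.911).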
